A study of Mus musculus with 6 samples.

Results

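MPP4-class cells of cluster 2 were the bone marrow progenitor cells that the authors' cell table puts both in the class MPP4 and in cluster 2, and they were selected by those 2 entries alone. They numbered 3000 of the 16822 cells that the table keeps. All cells came from C57BL/6J female recipients (CD45.1, 8-12 weeks of age) that had received no conditioning. The PBS group had been injected with PBS, and the AML group with C1498 cells, a murine AML cell line that carries CD45.2. Bone marrow was taken at day 21, and CD45.1+ Lin- cKit+ Sca1+ cells, the healthy HSPCs of the host, were sorted for droplet sequencing with 10x Chromium GEM V3 chemistry. The model rests on a single transplanted cell line, and the labels do not say how many mice went into a library. The p-values here therefore take the library, and not the mouse, as the unit.

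MPP4 cells are the lymphoid-primed multipotent progenitors of the LSK compartment. They carry the receptor Flt3 and feed mainly the lymphoid lineages, through common lymphoid progenitors that gain the IL-7 receptor. Priming shows first as low levels of lymphoid transcripts, such as the template-independent polymerase Dntt, before the antigen receptor genes are rearranged. Interferons act on stem and progenitor cells through receptors that switch on a shared set of antiviral and antigen presentation genes.

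By library, the members numbered 1274, 185 and 781 cells in PBS replicates 1, 2 and 3, and 41 and 719 cells in AML replicates 1 and 3. These libraries are called PBS 1, PBS 2, PBS 3, AML 1 and AML 3 from here on. AML replicate 2 has no cell in the table, so 3 PBS libraries were set against 2 AML libraries. UMI counts were summed per library over the members, which gave 5216526, 1790966 and 3265936 UMIs in the PBS libraries, 118389 in AML 1 and 4203126 in AML 3. AML 1 stood apart: its log2 CPM correlated with the other libraries at 0.770 to 0.803, and the others correlated among themselves at 0.954 to 0.979 (Pearson's r across genes, which are not independent replicates). A single UMI in AML 1 is worth 8.45 CPM (the UMIs of a gene scaled to a fixed total per library), against 0.238 CPM in AML 3. The main comparisons are therefore also given without that library. Of the members' barcodes, 2 occurred in more than 1 library.

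The 5 markers of lymphoid priming were all present, in every library. Flt3, the receptor tyrosine kinase that marks the class, had a median over libraries of 472 CPM in these cells, against 350 CPM in MPP4-class cells of clusters 0 and 1 and 96.0 CPM in HSC-class cells of clusters 0 to 2. Dntt stood furthest above its neighbours in absolute level: the medians were 752 CPM in the members, 136 CPM in MPP4-class cells of clusters 0 and 1, and 14.9 CPM in HSC-class cells. Satb1, a chromatin organizer needed for lymphoid commitment, was at 236, 123 and 35.3 CPM in the same order. Notch1, the receptor that directs T cell fate, was at 39.2, 14.4 and 8.24 CPM. Il7r, the IL-7 receptor alpha chain of common lymphoid progenitors, was at 62.8 and 2.66 CPM in the first 2 groups, and HSC-class cells had no UMI of it in 4 of 5 libraries. Other classes of cluster 2 resembled the members in Il7r (48.1 CPM) more than in Satb1 (139 CPM). Class and cluster were both built from these cells' expression, so the marker levels describe the cells and carry no test.

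**Figure D1:**
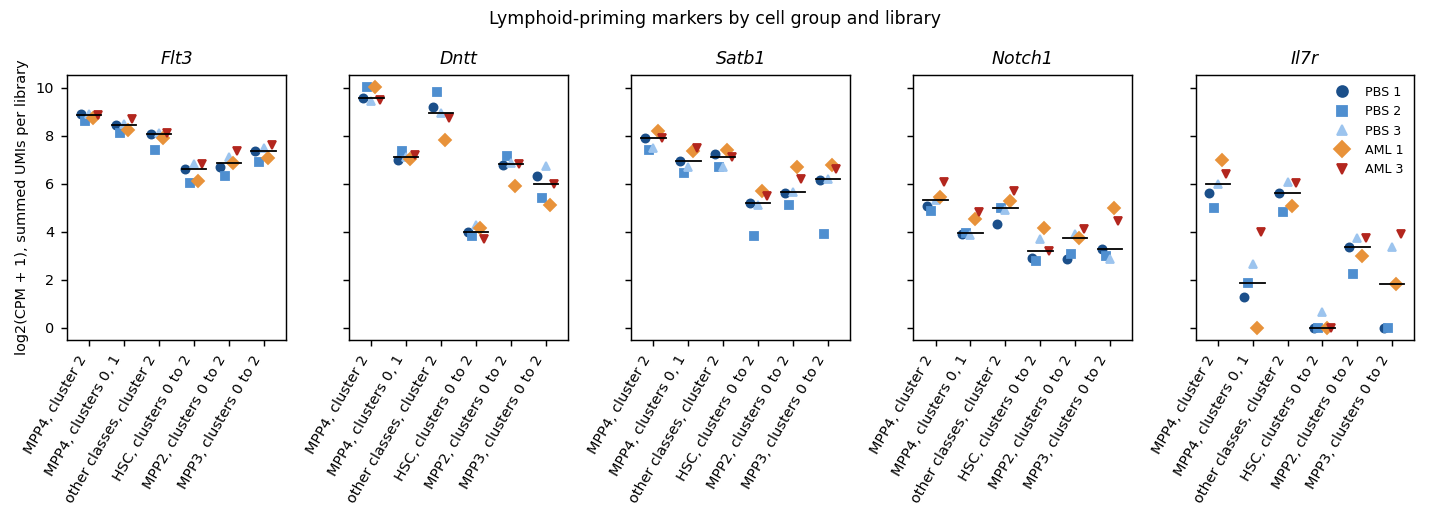
Levels of the 5 lymphoid-priming markers, as log2(CPM + 1) of UMIs summed per library (vertical axis), in 6 cell groups (horizontal axis). Each symbol is 1 library and each bar the median over 5 libraries; the members of cluster 2 had the highest median of all 5 markers, and Il7r was near 0 in the HSC class.

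Per cell, the markers were detected in different shares. After each cell was thinned to 2000 UMIs, which 2978 of the 3000 members reached, 62.3% of the members had a UMI of Flt3, 61.4% of Dntt, 34.4% of Satb1, 9.50% of Il7r and 8.70% of Notch1. The unthinned shares were 86.1%, 75.6%, 57.7%, 17.9% and 17.7%. In HSC-class cells, in which Dntt and Il7r should be absent, the thinned shares were 15.9% for Flt3, 2.04% for Dntt, 5.89% for Satb1 and 2.01% for Notch1, over 2936 cells. Il7r was found in 0 of those 2936 cells, which allows a share of up to 0.102% with a UMI at this depth and sets no limit on cells that express it. Before thinning, HSC-class cells of PBS 3 held 2 UMIs of it. At this depth 58.4% of the members showed at least 2 of the 5 markers and 9.07% showed none. No single marker was seen in every member.

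Many members lay close to the class boundary. The table assigns each cell to the class with the highest of 4 module scores, and this held for all 16822 cells. The median lead of the MPP4 score over the next class was 0.0868, and 743 members (24.8%) led by less than 0.05. The 84 members that led by less than 0.01 had 351 CPM of Flt3, 581 CPM of Dntt, 212 CPM of Satb1, 30.6 CPM of Notch1 and 51.0 CPM of Il7r. The 108 cells of cluster 2 that missed the class by up to 0.01 had 355 CPM of Flt3, 860 CPM of Dntt, 167 CPM of Satb1, 40.6 CPM of Notch1 and 60.9 CPM of Il7r, and they were called MPP2 (52 cells), MPP3 (36 cells) or HSC (20 cells).

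Against MPP4-class cells of clusters 0 and 1, the members carried more of several B-lymphoid transcripts and less of the stem cell factor Hlf (a median of 85.1 CPM against 195 CPM). This is a description, since the clusters were drawn from these same genes. Of 4617 genes at a mean log2(CPM + 1) of at least 5 in either group, 513 were higher and 885 lower in the members in all 5 libraries. The largest median log2 ratios were those of Ly6d (4.58), a surface protein of B-lineage-specified lymphoid progenitors, Cox6a2 (4.23), a muscle-type subunit of cytochrome c oxidase, Ebf1 (3.70), the transcription factor that specifies B cells, and Il7r (3.34). Also among the 10 largest were Ly86, the partner of the receptor RP105, at 2.76 and Dntt at 2.55. In PBS 1, Ebf1 was at 18.4 CPM in the members and 2.66 CPM in MPP4-class cells of clusters 0 and 1. On the other side were Dach1 (log2 ratio -3.04), a transcriptional repressor, the metabolic gene Sdsl (-2.84), Csgalnact1 (-2.79), a chondroitin sulfate synthesis enzyme, Pdzk1ip1 (-2.17) and the apolipoprotein Apoe (-2.08). Dach1 was at 14.4 CPM in the members and 116 CPM in the neighbouring clusters of PBS 1, and at 9.52 and 121 CPM in AML 3.

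The genes that varied most among the members themselves, beyond what counting allows, were ranked in cells thinned to 2000 UMIs in each library with at least 100 such cells, which left AML 1 out of the ranking. A gene's place was set by its worst rank over the other 4 libraries, among 3983 genes. The leading genes were the nuclear RNA Malat1, C77080, the proliferation gene Pclaf, the chemokine Ccl4, Actb, Isg15, Wfdc17, Cd74, the histones H2afz and Hist1h2bc, Car2 and Dntt. Isg15, a ubiquitin-like protein induced by interferon, had a variance of 2.47 to 2.76 times the expected (counting error plus a small fixed overdispersion) in the PBS libraries, 5.10 times in AML 1 and 3.95 times in AML 3. Its mean was also higher in AML, at 0.927 and 1.03 UMIs per thinned cell against 0.367 to 0.407 in PBS. The ratio can grow with the mean, so it does not show more relative variation in AML. Cd74, the invariant chain of MHC class II, ranged from 1.00 times in AML 1 to 13.2 times in AML 3. Its mean in AML 1 was only 0.0244 UMIs per thinned cell, too few to show variation. Dntt ranged from 1.95 to 3.13 times.

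The members made up 18.6%, 19.8% and 17.8% of the kept cells in PBS replicates 1, 2 and 3. The share was 5.92% in AML 1, with a 95% exact Clopper-Pearson interval of 4.28% to 7.94% that covers counting error only, and 18.2% in AML 3. The mean was 18.7% ± 1.03 (SD, n = 3) in PBS and 12.0% ± 8.66 (SD, n = 2) in AML, a difference of -6.69 percentage points (two-sided exact permutation test over libraries, p = 0.2). The smallest p that 3 against 2 libraries allow is 0.1. The difference rested on 1 library: without AML 1 it was -0.57 points. Among MPP4-class cells, cluster 2 held 44.8%, 45.6% and 48.4% in PBS and 35.0% and 48.5% in AML (difference -4.47 points, two-sided exact permutation test, p = 0.5). Without AML 1, that difference turned to 2.26 points.

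Cell cycle phases, as the cell table gives them, separated AML 1 from the rest. G1 cells made up 71.7%, 76.2% and 79.3% of the members in PBS and 67.6% in AML 3, but 31.7% in AML 1, where the exact Clopper-Pearson interval runs from 18.1% to 48.1%. G2M cells were 9.03%, 3.24% and 6.02% of the members in PBS, 34.1% in AML 1 and 10.8% in AML 3. Depth also differed, with medians of 3680, 9076 and 3888 UMIs per member in PBS, 2582 in AML 1 and 5307 in AML 3. The median mitochondrial share lay between 0.758% and 1.19% in all 5 libraries.

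The comparison of AML with PBS asked which genes of the lymphoid-primed cells differed in leukemic marrow. Among the genes that rose in AML were the chemokine Cxcl10, the interferon-induced Isg15, Ifit1 and Ifit3, and Ly86 and Irf8 of the myeloid and dendritic side, and among those that fell were the immediate early transcription factors Fos and Junb. Of 10942 genes tested, 21 rose and 10 fell with edgeR at an adjusted p under 0.05, which is 0.192% and 0.0914% of the genes tested. In this fit edgeR took the spread from a trend shared by genes (the median prior degrees of freedom were infinite). Its standard errors (SE) and p-values therefore do not measure a gene's own spread between libraries, and a gene whose AML libraries disagree can pass. The 2 AML libraries lay above all 3 PBS libraries in 10.9% of the genes and below them in 13.8%. The median log2 fold change over all genes tested was -0.03. DESeq2 and limma-voom called 0 genes (138 and 398 genes at an unadjusted p under 0.05, against 465 with edgeR), although 28 and 29 of the 31 edgeR calls had an unadjusted p under 0.05 there. Without AML 1 the AML group is the single library AML 3, which is then assumed to vary as the PBS libraries do, here and wherever a value without AML 1 is given, and the same holds for AML 1 where AML 3 is left out. In that fit edgeR called 8 genes, all 8 among the 31: Cxcl10, Ly86, Ifit3, Glis3, Cd74, Slc4a8, Dscam and Trpc6. Without PBS 1, PBS 2, PBS 3 and AML 3, in that order, 10, 19, 18 and 11 genes passed. All 31 genes kept their sign without AML 1. The 31 genes were chosen on these same libraries, so neither this nor their unadjusted p in DESeq2 and limma-voom is independent support.

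**Figure D2:**
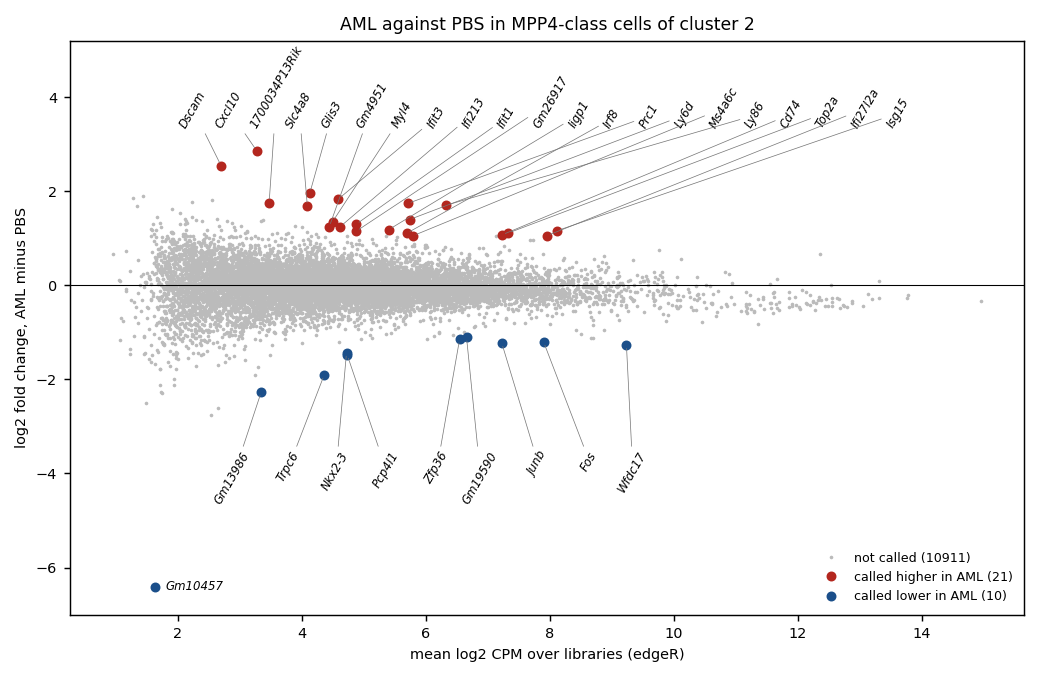
Log2 fold change of AML minus PBS (vertical axis) against the mean log2 CPM of a gene over libraries (horizontal axis) for the 10942 genes tested in the members with edgeR. Red and blue points are the 21 genes called higher and the 10 called lower, with their names; the fitted value of Gm10457 depends on the prior count, since both AML libraries had no UMI of it.

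Cxcl10, a chemokine that interferon gamma induces and that attracts T and NK cells, showed the largest rise, and it came from few cells. The TMM-scaled CPM (CPM on the library size that edgeR normalised) were 1.64, 2.43 and 6.25 in PBS, 51.2 in AML 1 and 20.1 in AML 3. The AML libraries were both above the PBS libraries (log2 fold change 2.86 ± 0.43 SE, edgeR adjusted p = 3.64e-07). Without AML 1 the log2 fold change was 2.61 (edgeR adjusted p = 0.00143). In AML 3, 24 of 719 members held the 84 UMIs, and 1 of these cells held 28. In AML 1 all 7 UMIs lay in 1 cell. In PBS, 7, 3 and 5 members of the 3 libraries held a UMI. Cxcl9, a chemokine of the same family that the study also names, had no UMI in any member, which allows up to 0.206 CPM over all of them.

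**Figure D3:**
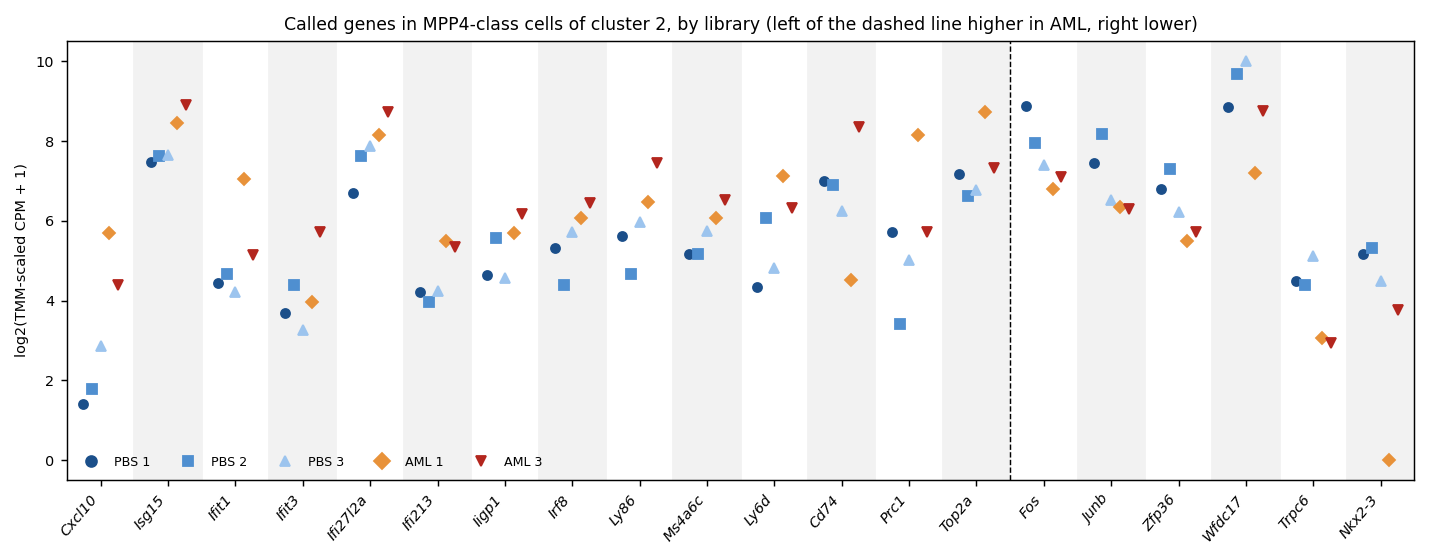
TMM-scaled CPM of 20 called genes, as log2(value + 1), in the members of each library (vertical axis); each symbol is 1 library and genes stand along the horizontal axis. The 14 genes to the left of the dashed line were called higher in AML and the 6 to the right lower, and for Ifit3, Cd74 and Prc1 the libraries of the groups overlap.

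Isg15 had a UMI in a larger share of the members in AML. Its TMM-scaled CPM were 176, 198 and 200 in PBS and 351 and 479 in AML, with no overlap (log2 fold change 1.16 ± 0.27 SE, edgeR adjusted p = 0.0226). Without AML 1 the log2 fold change was 1.33 and the edgeR adjusted p 0.0632. In cells thinned to 2000 UMIs, 23.6%, 22.7% and 21.6% of the members had a UMI of it in PBS, 36.6% in AML 1 and 42.3% in AML 3. Ifi27l2a, an interferon-induced mitochondrial protein, followed the same course, at 104, 198 and 236 TMM-scaled CPM in PBS and 285 and 427 in AML (log2 fold change 1.06 ± 0.27 SE, edgeR adjusted p = 0.0444). It was seen in 17.1%, 28.6% and 27.5% of the thinned PBS members, and in 46.3% and 49.5% in AML. These are shares of cells with a UMI, and no background share was measured for either gene. Over all barcodes, Isg15 was at 105 to 131 CPM in the PBS libraries at 280 and 279 CPM in AML 1 and AML 3, and at 117 CPM in AML replicate 2, within the PBS range. The part of free RNA in the shares was not tested.

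The list of interferon-stimulated genes held 29 tested genes, of which 4 rose (Isg15, Ifi27l2a, Ifit1 and Ifit3) and 0 fell, with a median log2 fold change of 0.42, against -0.03 over all genes. Of all genes tested, 0.192% rose and 0.0914% fell. Ifit1, which blocks translation of viral RNA, was at 20.6, 24.3 and 17.7 TMM-scaled CPM in PBS, 132 in AML 1 and 34.4 in AML 3 (log2 fold change 1.30 ± 0.32 SE, edgeR adjusted p = 0.0312). In AML 1, 17 of its 18 UMIs were in 1 cell. Ifit3, its partner in the same complex, was at 12.0, 20.1 and 8.69 TMM-scaled CPM in PBS, 14.6 in AML 1 and 52.1 in AML 3, so that the groups overlapped (log2 fold change 1.83 ± 0.31 SE, edgeR adjusted p = 8.27e-06). AML 1 lay within the PBS range, and the rise of Ifit3 rested on AML 3. Irf7, the interferon regulatory factor that amplifies type I interferon and one of the genes the study names, did not pass, at 149, 144 and 97.6 TMM-scaled CPM in PBS and 139 and 260 in AML (log2 fold change 0.75 ± 0.27 SE, edgeR adjusted p = 0.491). Ifitm1, a membrane protein that restricts virus entry and that was chosen here after its values were seen, lay on the other side without passing, at 375, 656 and 509 TMM-scaled CPM in PBS and 190 and 260 in AML (log2 fold change -1.13 ± 0.31 SE, edgeR adjusted p = 0.0764). Over the whole list 24 of 29 log2 fold changes were above 0, against 46.5% of all genes tested. At an unadjusted p under 0.05 there were 11 higher genes and 1 lower, against 465 of 10942 genes in both directions.

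The promoters of these genes were read from RefSeq (GRCm38.p6), to see which of the genes that rose hold the letters of an interferon response element. Of the 21 genes that rose, 14 had a promoter window in the table used here, and of the 10 that fell, 9 had. The 250 bases before the start were searched on both strands for GAAA, any 2 bases and GAAA again, the core of the interferon-stimulated response element. Among the windows of genes that rose, those of 5 genes held it: Cxcl10, Isg15, Ifit1, Ifit3 and Ifi213. None of the 9 genes that fell did. Of all 32851 windows, 2.98% held it. TTC, any 3 bases and GAA, the core of the interferon-gamma activated site, were in the window of Irf8 among the genes that rose and of Zfp36 among those that fell, and in 7.02% of all windows. The 4 windows below are those of the interferon genes described above, each 5′ to 3′ on the strand of its gene, with matches to the first motif on either strand in capitals. They are at chr5:92348890-92349139 (minus strand) for Cxcl10, chr4:156200819-156201068 (minus strand) for Isg15, chr19:34640639-34640888 (plus strand) for Ifit1 and chr19:34583279-34583528 (plus strand) for Ifit3.
Cxcl10: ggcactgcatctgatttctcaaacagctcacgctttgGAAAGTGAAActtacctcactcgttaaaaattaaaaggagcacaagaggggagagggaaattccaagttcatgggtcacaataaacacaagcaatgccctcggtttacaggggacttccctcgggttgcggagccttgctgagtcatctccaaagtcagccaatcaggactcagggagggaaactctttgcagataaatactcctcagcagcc
Isg15: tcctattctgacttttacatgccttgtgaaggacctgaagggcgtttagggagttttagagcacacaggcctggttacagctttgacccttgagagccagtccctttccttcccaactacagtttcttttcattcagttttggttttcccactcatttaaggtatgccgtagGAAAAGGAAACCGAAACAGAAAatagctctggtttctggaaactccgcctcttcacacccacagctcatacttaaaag
Ifit1: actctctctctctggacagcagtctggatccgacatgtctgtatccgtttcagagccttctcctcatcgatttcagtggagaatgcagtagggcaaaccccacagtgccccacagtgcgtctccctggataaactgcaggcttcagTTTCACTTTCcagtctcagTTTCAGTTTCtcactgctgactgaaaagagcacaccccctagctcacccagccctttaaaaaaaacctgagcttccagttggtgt
Ifit3: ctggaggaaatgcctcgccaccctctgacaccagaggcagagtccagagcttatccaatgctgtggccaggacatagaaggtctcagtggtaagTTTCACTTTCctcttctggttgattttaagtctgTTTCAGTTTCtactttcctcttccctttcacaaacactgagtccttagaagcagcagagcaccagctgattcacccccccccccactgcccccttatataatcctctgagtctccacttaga
Cxcl10 has 1 match, Ifit1 and Ifit3 have 2 each, and in Isg15 3 overlapping matches form 1 run. A match is a run of letters and not evidence of binding.

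Genes of the interferon gamma response and of antigen presentation gave 4 rises among 28 tested genes and 0 falls, against 0.192% and 0.0914% of all genes tested. The median log2 fold change of the list was 0.27 (-0.03 over all genes), and 17 of the 28 were above 0 (46.5% over all genes). The 4 that rose were Cxcl10, Iigp1, Irf8 and Cd74. Iigp1, an immunity-related GTPase, was at 24.0, 46.2 and 22.6 TMM-scaled CPM in PBS and 51.2 and 71.7 in AML (log2 fold change 1.19 ± 0.28 SE, edgeR adjusted p = 0.0247). Cd74 rested on 1 library: it was at 126, 118 and 75.0 TMM-scaled CPM in PBS and at 329 in AML 3, but at 21.9 in AML 1, from 3 UMIs (log2 fold change 1.07 ± 0.26 SE, edgeR adjusted p = 0.0248, and 1.63 without AML 1). In AML 3, 246 members held its 1378 UMIs, and the 10 richest cells held 402 of them. Class I genes such as H2-K1 and B2m, the light chain that class I molecules share, did not pass. B2m was at 1603, 1737 and 1833 TMM-scaled CPM in PBS and 966 and 1598 in AML (log2 fold change -0.41 ± 0.34 SE). Outside these lists, Ifi213 of the interferon-inducible p200 family and the GTPase family gene Gm4951 rose with log2 fold changes of 1.25 ± 0.31 SE and 1.24 ± 0.32 SE (edgeR adjusted p = 0.0312 and 0.0421).

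Of 16 tested genes of granulocyte-monocyte priming, 3 rose (Ly86, Irf8 and Ms4a6c) and 0 fell, against 0.192% and 0.0914% of all genes tested. The median log2 fold change of the list was -0.16, against -0.03 over all genes. Ly86 had the clearest difference after Cxcl10: its TMM-scaled CPM were 48.4, 24.3 and 61.8 in PBS, 87.8 in AML 1 and 175 in AML 3 (log2 fold change 1.70 ± 0.26 SE, edgeR adjusted p = 4.62e-07, and 1.93 without AML 1). It was detected in 6.26%, 3.78% and 6.35% of the thinned PBS members, and in 19.5% and 18.8% in AML. Ly86 also separated the members from MPP4-class cells of clusters 0 and 1 (median log2 ratio 2.76). The selection of the members thus bears on Ly86, and its p-value is a description. Irf8, the transcription factor of dendritic cells and monocytes, was at 38.9, 20.1 and 51.4 TMM-scaled CPM in PBS and 65.8 and 85.7 in AML (log2 fold change 1.11 ± 0.28 SE, edgeR adjusted p = 0.0312). Ms4a6c, a tetraspanin-like protein of monocytes, was at 35.3, 35.3 and 52.5 TMM-scaled CPM in PBS and 65.8 and 91.0 in AML (log2 fold change 1.06 ± 0.27 SE, edgeR adjusted p = 0.0463). Spi1, the master regulator of myeloid cells, was at 163, 224 and 157 TMM-scaled CPM in PBS and 51.2 and 134 in AML and did not pass (log2 fold change -0.68 ± 0.28 SE).

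The lists of lymphoid genes hold the 5 markers as well: Satb1 and Notch1 are among the regulators, Flt3 and Il7r among the receptors and Dntt among the recombination genes. Since the selection of the members bears on such genes, the counts are a description, and so is the p-value of Ly6d below. Of 19 tested regulators of lymphoid priming 0 passed (median log2 fold change 0.17, with 4 genes at an unadjusted p under 0.05 in edgeR, and 0 calls with DESeq2 and limma-voom over all genes). Of these 19, 17 log2 fold changes were above 0 (46.5% over all genes tested), and in 6 both AML libraries lay above PBS (10.9% over all genes tested). Of 20 receptors and surface proteins 1 rose, Ly6d (0.192% of all genes tested rose), and 8 log2 fold changes were above 0. Ly6d was at 19.3, 66.3 and 27.1 TMM-scaled CPM in PBS and 139 and 79.1 in AML (log2 fold change 1.40 ± 0.29 SE, edgeR adjusted p = 0.00134). Without AML 1 it no longer passed (log2 fold change 1.17, edgeR adjusted p = 0.448). In PBS 2, 65 of its 109 UMIs lay in 1 cell. In thinned cells 1.82%, 2.70% and 2.46% of the PBS members and 9.76% and 5.98% of the AML members had a UMI of it.

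The 5 markers are described without a test, because the class and cluster that chose the members were built from these cells' own expression. Flt3 was at 455, 426 and 544 TMM-scaled CPM in PBS and 373 and 473 in AML (log2 fold change -0.14 ± 0.30 SE). Dntt was at 714, 1125 and 782 in PBS and 915 and 725 in AML (log2 fold change -0.11 ± 0.32 SE). Satb1 was at 224, 184 and 205 TMM-scaled CPM in PBS and 256 and 237 in AML (log2 fold change 0.25 ± 0.28 SE). The other two had larger differences. Il7r was at 45.7, 34.1 and 71.2 TMM-scaled CPM in PBS and 110 and 84.1 in AML, with no overlap (log2 fold change 0.82 ± 0.28 SE). Notch1 was at 30.7, 30.4 and 44.5 in PBS and 36.6 and 66.9 in AML (log2 fold change 0.79 ± 0.28 SE). Of 12 tested genes of recombination and early antigen receptor transcripts, 0 passed and 0 had an unadjusted p under 0.05. Ighm, the heavy chain transcript, was at 308, 382 and 301 TMM-scaled CPM in PBS and 271 and 281 in AML (log2 fold change -0.25 ± 0.29 SE).

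**Figure D4:**
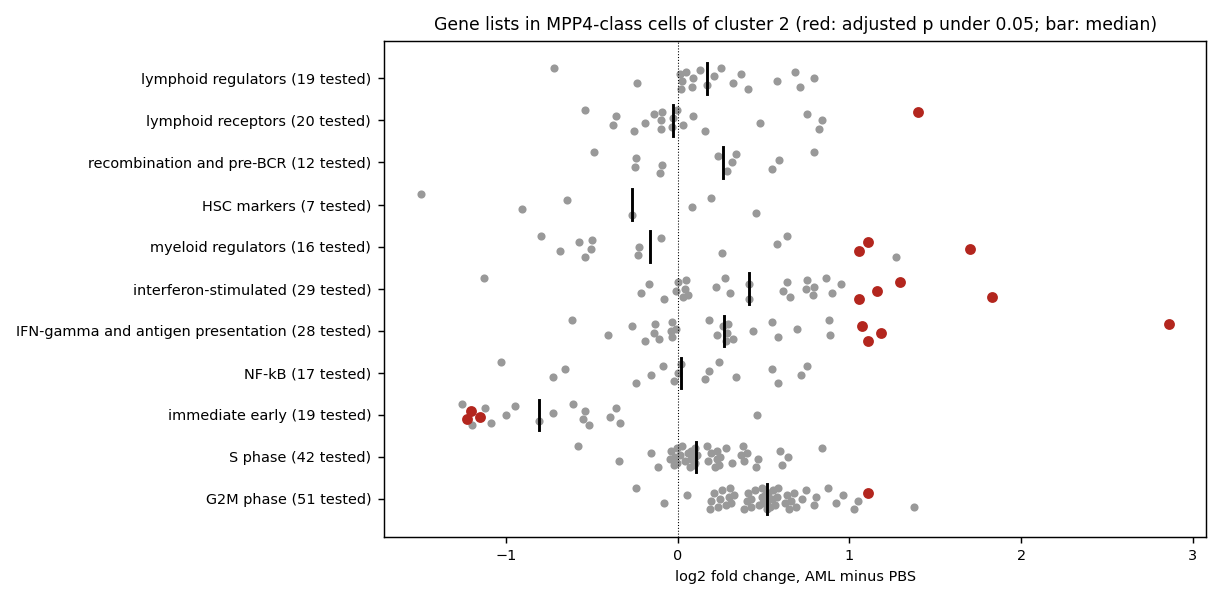
Log2 fold changes of AML minus PBS in the members (horizontal axis) for the tested genes of 11 lists (vertical axis); each point is a gene, red points passed at an adjusted p under 0.05 with edgeR, and black bars are list medians. The interferon-stimulated list had a median of 0.42, the G2M list of 0.52 and the immediate early list of -0.81.

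Immediate early genes code for transcription factors and feedback regulators that answer a stimulus within minutes. Of 19 tested, 3 fell (Fos, Junb and Zfp36) and 0 rose, against 0.0914% and 0.192% of all genes tested. At an unadjusted p under 0.05 in edgeR 10 were lower, against 465 of 10942 genes in both directions. The list's median log2 fold change was -0.81. Its summed level was 3283, 2633 and 1409 CPM in PBS and 1664 and 1475 CPM in AML, so that PBS 3 lay below both AML libraries. In 6 of the 19 genes the AML libraries lay below all PBS libraries (13.8% of all genes tested did). Fos was at 467, 248 and 167 TMM-scaled CPM in PBS and 110 and 136 in AML (log2 fold change -1.20 ± 0.30 SE, edgeR adjusted p = 0.0312). Junb was at 174, 288 and 90.7 TMM-scaled CPM in PBS and 80.5 and 77.6 in AML (log2 fold change -1.23 ± 0.30 SE, edgeR adjusted p = 0.0312). Zfp36, which promotes decay of cytokine mRNA, was at 110, 156 and 73.7 TMM-scaled CPM in PBS and 43.9 and 51.8 in AML (log2 fold change -1.15 ± 0.30 SE, edgeR adjusted p = 0.0499). PBS 3 was closest to the AML libraries in all 3 genes. On the plain CPM scale Junb overlapped, at 79.9 in PBS 3 and 92.9 in AML 1. None of the 3 passed without AML 1.

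The other genes that fell were of mixed kinds. Trpc6, a cation channel, fell most clearly, from 21.7, 20.1 and 33.7 TMM-scaled CPM in PBS to 7.32 and 6.69 in AML (log2 fold change -1.90 ± 0.40 SE, edgeR adjusted p = 0.00319, and 0.0292 without AML 1). The AML 1 value is a single UMI. Nkx2-3, a homeobox factor, was at 35.3, 38.9 and 21.5 TMM-scaled CPM in PBS, 0 in AML 1 and 12.7 in AML 3 (log2 fold change -1.43 ± 0.36 SE, edgeR adjusted p = 0.0312). Wfdc17, a secreted protein of activated macrophages, was at 464, 816 and 1036 TMM-scaled CPM in PBS, 146 in AML 1 and 434 in AML 3 (log2 fold change -1.27 ± 0.32 SE, edgeR adjusted p = 0.0312). The remaining calls were Pcp4l1 (log2 fold change -1.48 ± 0.37 SE) and the RNAs Gm19590 (-1.11 ± 0.29 SE) and Gm13986 (-2.27 ± 0.53 SE). Gm10457 had 30 UMIs in the PBS libraries and 0 in both AML libraries, at least 4.21-fold lower in AML when a count of 0 over the group is read as 3 UMIs.

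Proliferation genes were highest in AML 1, the library with the fewest G1 cells. Of 51 tested G2M phase genes 1 rose, Top2a, and in 27 of them both AML libraries lay above the PBS libraries (10.9% of all genes tested did). The summed level of the list was 3142, 1949 and 2237 CPM in PBS, 5659 in AML 1 and 3190 in AML 3. Top2a, the topoisomerase of dividing cells, was at 145, 97.3 and 109 TMM-scaled CPM in PBS, 424 in AML 1 and 160 in AML 3 (log2 fold change 1.11 ± 0.28 SE, edgeR adjusted p = 0.0317). Prc1, a microtubule protein of cytokinesis, was at 51.9, 9.73 and 31.6 TMM-scaled CPM in PBS, 285 in AML 1 and 51.6 in AML 3 (log2 fold change 1.74 ± 0.30 SE, edgeR adjusted p = 1.60e-05). Without AML 1 their log2 fold changes were 0.44 and 0.64 and neither passed. Of 42 tested S phase genes 0 passed (3 at an unadjusted p under 0.05, against 465 of 10942 over all genes), with a median log2 fold change of 0.11. In 10 of them both AML libraries lay above PBS and in 1 below (10.9% and 13.8% of all genes tested). Of the 42 log2 fold changes 32 were above 0 (46.5% over all genes tested).

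Further genes rose that belong to none of the lists. Slc4a8, a bicarbonate transporter, was at 11.3, 4.26 and 11.8 TMM-scaled CPM in PBS and 14.6 and 34.2 in AML (log2 fold change 1.68 ± 0.33 SE, edgeR adjusted p = 7.56e-04). Myl4, a myosin light chain, was at 12.6, 17.0 and 17.0 TMM-scaled CPM in PBS and 73.2 and 33.0 in AML (log2 fold change 1.35 ± 0.33 SE, edgeR adjusted p = 0.0249). Glis3, a zinc finger transcription factor, was at 9.64, 8.52 and 7.99 TMM-scaled CPM in PBS, 7.32 in AML 1 (1 UMI) and 38.9 in AML 3, so that the groups overlapped (log2 fold change 1.96 ± 0.33 SE, edgeR adjusted p = 8.27e-06). The cell adhesion gene Dscam and the RNAs 1700034P13Rik and Gm26917 had log2 fold changes of 2.54 ± 0.51 SE, 1.76 ± 0.42 SE and 1.15 ± 0.30 SE.

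NF-kB genes, which the study names as part of the inflammatory response, gave 0 calls among 17 tested, with a median log2 fold change of 0.02. Of all genes tested 0.192% rose and 0.0914% fell, so 0 calls among 17 lie near that share. At an unadjusted p under 0.05 in edgeR 3 were higher and 2 lower, against 465 of 10942 genes in both directions. Nfkb1, the p105 precursor, was at 72.8, 60.2 and 85.1 TMM-scaled CPM in PBS and 154 and 94.6 in AML, without overlap (log2 fold change 0.59 ± 0.28 SE, edgeR adjusted p = 1.00). Nfkb2 was at 2.73, 4.26 and 3.13 TMM-scaled CPM in PBS and 7.32 and 5.25 in AML, the first of these a single UMI (log2 fold change 0.75 ± 0.61 SE). The 7 genes taken from the study were chosen by it on these samples, so the 3 of them that rose here, Isg15, Irf8 and Cxcl10, are not independent evidence of a direction.

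Markers of other cell types were summed per library on the plain CPM scale, although the Lin- cKit+ Sca1+ gate is meant to remove mature cells. The 7 neutrophil markers summed to 0 to 3.45 CPM per library, and the 8 monocyte and macrophage markers to 12.8 to 24.3 CPM, with no UMI of Adgre1. T and NK markers summed to 123 to 144 CPM, nearly all of it Nkg7, and Cd3e, Cd3g, Gzma and Ncr1 had no UMI. The committed B-lineage markers summed to 133, 126 and 125 CPM in PBS and 177 and 141 CPM in AML, and of 5 tested 0 passed (1 at an unadjusted p under 0.05, with a median log2 fold change of 0.59). Igll1 had no UMI, Cd79b was at 36.6 to 88.9 TMM-scaled CPM, and Ebf1 was at 17.5, 34.7 and 27.8 TMM-scaled CPM in PBS and 73.2 and 34.2 in AML (log2 fold change 0.64 ± 0.31 SE). Vpreb1 and Rag1 were higher in both AML libraries than in PBS on the plain CPM scale, from 3 UMIs and 1 UMI in AML 1. Erythroid markers summed to 25.5, 5.03 and 6.43 CPM in PBS and 0 and 6.19 CPM in AML, and megakaryocyte markers to 27.3 to 30.5 CPM in 4 libraries and 76.0 CPM in AML 1. Plasmacytoid dendritic genes summed to 710, 681 and 671 CPM in PBS and 954 and 972 CPM in AML. The defining Siglech was at 0 to 1.73 CPM, and 2 of the 6 tested genes of that list rose, Irf8 and Ly6d. The part of such cells in the rise of Irf8 and Ly6d was not tested. Stem cell markers gave 0 calls among 7 tested (2 at an unadjusted p under 0.05). Of all genes tested 0.192% rose and 0.0914% fell, and 465 of 10942 had an unadjusted p under 0.05 in edgeR. A list this short with 0 calls lies near those shares of calls. Hlf, a stem cell transcription factor, was at 103, 119 and 96.6 TMM-scaled CPM in PBS and 65.8 and 54.5 in AML (log2 fold change -0.91 ± 0.30 SE, edgeR adjusted p = 0.338).

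Whether AML acted differently on the members than on their neighbours was tested with an interaction term and 1 term per library. Against MPP4-class cells of clusters 0 and 1, 6 of 11623 genes passed, which is 0.0516%. Ikzf2, the Ikaros family member Helios, was at 88.4, 73.3 and 75.6 TMM-scaled CPM in the PBS members and 14.8 and 54.5 in AML, while MPP4-class cells of clusters 0 and 1 held 154, 124 and 138 in PBS and 133 and 165 in AML (log2 difference of AML effects -0.83 ± 0.17 SE, edgeR adjusted p = 0.00400). The Ikzf2 value of the AML 1 members is 2 UMIs. Hlf was at 107, 123 and 99.6 TMM-scaled CPM in the PBS members and 66.8 and 56.3 in AML, and at 199, 200 and 214 in PBS and 112 and 180 in AML in MPP4-class cells of clusters 0 and 1 (log2 difference -0.71 ± 0.17 SE, edgeR adjusted p = 0.0472). In AML 1 Hlf was low in both cell groups, and the difference rested on AML 3. Hlf also separated the cell groups themselves (a median of 85.1 CPM in the members against 195 CPM). The clusters were drawn from these cells' own expression, so the selection bears on Hlf and its p-value is a description. The other four were C77080 and 3 low genes, Dqx1, Gm13842 and Gm10457. Without PBS 1, PBS 2 and PBS 3 the number that passed was 13, 4 and 9, and without AML 1 and AML 3 it was 6 and 1. None of the 6 genes passed without AML 3. For Isg15, Ly86 and Irf8 the difference of AML effects was 0.07 ± 0.14 SE, -0.14 ± 0.27 SE and 0.01 ± 0.27 SE on the log2 scale. Their log2 fold changes in MPP4-class cells of clusters 0 and 1 were 1.19, 1.81 and 1.15, though none passed there (edgeR adjusted p = 0.0588, 0.0691 and 0.308).

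Against the HSC, MPP2 and MPP3-class cells of cluster 2, which numbered 733, 2 of 9748 genes passed, which is 0.0205%. Isg15 rose more in the members: it was at 169, 190 and 191 TMM-scaled CPM in the PBS members and 351 and 460 in AML, but at 339, 321 and 450 in PBS and 301 and 544 in AML in the other classes (log2 difference of AML effects 0.87 ± 0.15 SE, edgeR adjusted p = 0.00454). The members thus had less Isg15 than the other classes of their cluster in all 3 PBS libraries and in AML 3, and more in AML 1. Tyrobp, an adaptor of activating receptors on myeloid and NK cells, differed the other way, at 205, 194 and 318 TMM-scaled CPM in the PBS members and 80.5 and 297 in AML, and at 157, 156 and 191 in PBS and 351 in both AML libraries in the other classes (log2 difference -0.93 ± 0.18 SE, edgeR adjusted p = 0.0270). Irf8 and Ly86 rose in the other classes as well, by 1.68 and 2.05 on the log2 scale (edgeR adjusted p = 0.0110 and 0.00175). Leaving out 1 library moved the number that passed: it was 9, 6 and 4 without PBS 1, PBS 2 and PBS 3, 2 without AML 1 and 64 without AML 3. Without PBS 3 neither Isg15 nor Tyrobp was among the genes that passed.

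**Figure D5:**
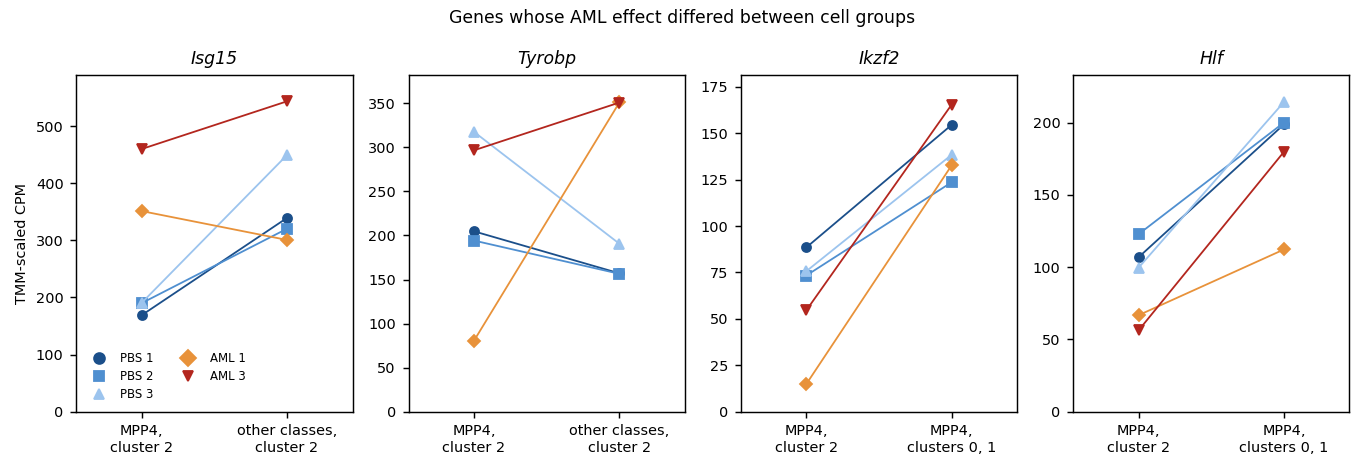
TMM-scaled CPM (vertical axis, from 0) of 4 genes whose AML effect differed between the members (left of each panel) and another cell group (right); each line joins the values of 1 library. Isg15 and Tyrobp are set against the other classes of cluster 2, and Ikzf2 and Hlf against MPP4-class cells of clusters 0 and 1, where the AML lines climb more steeply for Ikzf2.

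Several of these genes have limits set by the annotation (GENCODE, GRCm38). Cxcl10 (chr5:92346638-92348889, minus strand) lies within the span of Art3 on the other strand, Junb overlaps Prdx2 on the other strand, Irf8 overlaps Gm20388 on its own strand, and other annotated genes overlap Top2a, Trpc6, Prc1, 1700034P13Rik, Gm4951, Zfp36, Myl4, Ms4a6c, Glis3, Dscam, Gm13986, Cd74, Irf7, Ikzf2 and C77080. Annotated genes also overlap the markers Flt3, Satb1 and Notch1, and Nfkb1, Nfkb2, B2m, Ebf1 and Vpreb1. Whether reads were counted by strand is not stated in the sources used, so values of overlapping genes are uncertain. Isg15 is at chr4:156199424-156200818, Ly86 at chr13:37345208-37419036, Ly6d at chr15:74762056-74763620 and Irf8 at chr8:120736358-120756694. Ifit3, Ifi213, Wfdc17, Ms4a6c and Iigp1 belong to multigene families with close copies, and reads shared with a copy may have been left out or moved, so their levels are uncertain.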

How the data were processed

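Bone marrow LSK cells of PBS- and C1498-injected mice were sequenced in droplets. The deposited matrices hold raw UMI counts per gene and barcode, made by the authors with Cell Ranger 7.0.1 per the file headers. The submitters' processing notes also name R 4.2.2, Seurat 4.3.0 and the builds GRCm38 and mm10. The deposited cell table holds UMI counts per cell, the percent of mitochondrial UMIs, a phase, a cluster, a class and 4 module scores that the authors computed, and 15 further columns were not used. For cell filters and doublets, the steps taken are not given in the sources read here, and no doublet caller was run.

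Members' counts were summed per library (at least 20 cells) and tested with edgeR 4.0.16 (R 4.3.3, TMM, filterByExpr, quasi-likelihood test, Benjamini-Hochberg adjustment over all genes tested, threshold 0.05), without covariates. Interactions were tested in the same way with a term per library. DESeq2 1.42.0 and limma 3.58.1 (voom) were alternatives, beside the TMM, filter, replicate block, thinning, equal cells, phase and score margin settings. Shares were compared with exact permutation tests. The steps were tested on simulated data. Intervals cover counting error only. Members, gene lists and tests were chosen with earlier results of these data known. Genes named were the 5 markers, 7 genes the study names, and called genes of largest fold change at a mean log2 CPM of at least 4 without overlap, or next by p where few passed. The other called genes, and B2m, Spi1, Ighm, Cd79b, Hlf, Ebf1 and Ifitm1, were named after their values were seen.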

Additional observations from a re-analysis of the deposited data

Results flagged for a closer look

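The AML effect in the members differed from that in MPP4-class cells of clusters 0 and 1, by the interaction test in edgeR, for 6 genes. The log2 differences (members minus neighbours) were -0.83 for Ikzf2, -0.71 for Hlf, 0.93 for C77080, 3.06 for Dqx1, -6.40 for Gm13842 and -9.32 for Gm10457. Among the members, Gm10457 had no UMI in both AML libraries, and Gm13842 had none in AML replicate 1 and 0.494 TMM-scaled CPM in AML replicate 3, so their fitted values are no measure of size. For Dqx1 the AML libraries went opposite ways: the members were at 0 and the neighbours at 10.2 TMM-scaled CPM in AML replicate 1, and at 28.9 and 1.64 in AML replicate 3. For Hlf the difference rested on AML replicate 3, since in AML replicate 1 both cell groups were low (66.8 and 112 TMM-scaled CPM). Hlf also separates these clusters, so its value is a description. Against the other classes of cluster 2, the test singled out Isg15 (0.87) and Tyrobp (-0.93).

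AML replicate 2 has a matrix but no cell in the authors' table, and so entered no comparison. It holds 17055 barcodes and 7089569 UMIs, a mean of 416 UMIs per barcode, against 1180 to 10261 in the other libraries. Over all its barcodes, 9 of the 12 genes examined were above every PBS matrix: Flt3 at 258 CPM, Satb1 at 169 CPM, Notch1 at 56.7 CPM, Il7r at 15.7 CPM, Irf7 at 81.4 CPM, Irf8 at 168 CPM, Nfkb1 at 129 CPM, Nfkb2 at 18.6 CPM and Cxcl10 at 13.5 CPM. The other three were Isg15 at 117 CPM and Dntt at 159 CPM, both within the PBS range, and Cxcl9 at 0.564 CPM, also within it. The PBS matrices held 167 to 201 CPM of Flt3, 58.6 to 86.9 CPM of Satb1 and 0.931 to 4.92 CPM of Cxcl10. These values cover all barcodes and not MPP4-class cells. The share of all genes above every PBS matrix was not counted, so 9 of 12 is no result about these genes. How far they reflect the shallow barcodes was not tested.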

How the results depend on the processing

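The number of genes that passed in the members, 31 with edgeR, was 0 with DESeq2, 0 with limma-voom, 20 with library size scaling only (18 higher and 2 lower), 18 without the filter, 5 with cells thinned to 2000 UMIs, 2 with 41 cells per library, 6 in G1 cells (AML 1 dropped out), 5 at a score margin of at least 0.05, and 8 to 19 when 1 library was left out. G1 cells with a minimum of 10 per library, an alternative chosen after seeing the data, gave 10. The interaction counts were 0 with limma-voom in both comparisons (unadjusted p under 0.05 in 374 and 330 genes), 10 without the filter against the other classes, and 1 to 13 and 2 to 64 when 1 library was left out. The difference in the share of MPP4-class cells in cluster 2 ranged from -11.2 to 2.26 points. With the replicate block 10 genes passed, all among the 31; only 2 numbers pair, deviations of same-numbered libraries correlated at 0.0471 and 0.0218, and the libraries share only a number.

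Of 523 values of 39 named genes under alternatives, 213 kept direction and side of the threshold, 298 lost the call and 12 turned sign. The named genes include uncalled ones, such as Flt3, Dntt and Irf7, which count as kept when they stay uncalled with the same sign. The 213 values are therefore not a count of calls that held. Of the 31 calls, at most 17 held under any alternative (library size only), and 0 held with DESeq2 and limma-voom. Flt3 turned to 0.014 with library size only, 0.13 with equal cells and 0.061 in G1 cells. Dntt turned to 0.082 with library size only, 0.11 with the replicate block, 0.035 with equal cells and 0.14 with the score margin, and ranged from -0.26 to 0.12 without 1 library. Prc1 turned to -0.23 in G1 cells. Without 1 library Cd74 ranged from -2.30 to 1.63 and Glis3 from -0.30 to 2.14. The cause of these moves was not tested. The 41 cells of AML 1 limit all AML values.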
